A study of Mus musculus with 7 samples.

Results

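The genes described here are the mouse zinc finger genes whose symbols begin with Zfp, Zbtb, Zkscan or Zscan, taken from the m6A peak tables of regenerating muscle and of C2C12 cells. They were chosen by symbol alone, as each table writes it, and Zfp36, Zfp36l1, Zfp36l2 and the Zfpm genes were left out. Of 6392 genes with a listed peak in either table, 192 were zinc finger genes by this rule. The muscle table held 115 of them with 155 peaks, among 3980 genes and 5412 peaks. The C2C12 list held 133 of them with 193 peaks, among 3970 genes and 5433 peaks.

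The labels give muscle as the source and muscle stem cell as the cell type, and whether cells were sorted before the assay is not stated. The muscle data came from the injured tibialis anterior of C57BL/6 mice, 2 days after cardiotoxin, a venom toxin that kills muscle fibres and starts regeneration. Both muscle groups carried Pax7CreERT2 and were given tamoxifen before the injury. The cKO was Pax7CreERT2; METTL3 flox/flox and the control (CTL) was Pax7CreERT2; METTL3 wt/wt, with 1 m6A immunoprecipitation (IP) library and 1 input library for each genotype. Cre was driven from Pax7, so METTL3, the catalytic subunit of the m6A writer, was deleted only in Pax7+ muscle stem cells and their progeny, while the other cells of the muscle kept it. C2C12, a mouse myoblast line, gave 2 IP libraries and 1 input library. The 2 C2C12 IP libraries carry a knockout genotype label while their input is labelled normal, and the study knocked METTL3 down in C2C12 cells without stating whether the cells of this assay were such cells. The C2C12 list is therefore treated as 1 set of cells with this doubt over its genotype. The age of the mice, the number of animals in a library and the state of the C2C12 cells (proliferating or differentiated) are not given in the sources used here.

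Neither table gives a value per library. The muscle table gives 1 fold enrichment of IP over input for each peak, pooled over the libraries, and appears limited to peaks that passed the authors' own test between the genotypes, so a share listed in muscle may be a share of such peaks only. The C2C12 list gives places without a strength. There is therefore no replicate behind any value below, the genotypes were not compared here, sequencing depth is unknown, and every interval is a 95% Wilson or order-statistic interval for counting error over peaks or genes. A gene that is not listed may have been unexpressed or unmethylated or may have failed a filter, and expression was not tested. The tables hold no expression level for METTL3 in any library and no peak in Mettl3, so they give no check of the deletion. Of the 5 muscle markers looked up, 4 had a muscle peak (Pax7, Myod1, Myog and Des), as did 2 of 4 immune markers (Ptprc and Itgam) and Pdgfra of fibroblasts, whereas Pecam1 of endothelium had none. In C2C12, 3 of the 5 muscle markers and none of the 4 immune markers were listed. Of all protein-coding genes, 16.7% were listed in muscle and 16.6% in C2C12, so these small counts cannot show which cells were present.

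Zinc finger proteins of the C2H2 type read DNA through repeated finger modules, and they are the largest class of transcription factors in mammals. The Zbtb proteins add a BTB domain that recruits corepressors such as NCOR1 and BCOR. Many Zfp proteins add a KRAB domain that recruits TRIM28 and SETDB1, and the Zkscan and Zscan proteins carry a SCAN domain for pairing. KRAB and SCAN genes often sit beside each other in tandem clusters, and their fingers are usually encoded by a single long exon. In mRNA, m6A is deposited mainly within long internal exons and near the stop codon, in sequence contexts that include GGAC, whose A is the methylated base.

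The muscle table lists the positions of GGAC in each peak. For 2 zinc finger genes a listed site lay within a promoter sequence of RefSeq (GRCm38.p6), and 30 bases around it are shown because they give the actual motif that is counted below, with the GGAC in capitals. The Zscan29 site lay 8 bases after an annotated start, at chr2:121171102-121171131 on the minus strand, in a 5'UTR peak of 108-fold enrichment. The Zfp513 site lay in a coding sequence peak of 164-fold enrichment, 79 bases before the start of a shorter transcript, at chr5:31202106-31202135 on the minus strand.
Zscan29: cggcttgagagcgGGACtgaggctagccca
Zfp513: atcctaagagcaaGGACcgacggcagggcc
In both genes the listed coordinate fell on this motif in the reference sequence. Both sites come from peaks of several blocks on the minus strand, whose other listed positions are partly in doubt, as described with the site counts.

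Zinc finger genes were listed more often than protein-coding genes as a whole. RefSeq holds 463 protein-coding genes with these symbols, including Zfp36l3, which the rule does not leave out and which has no listed peak. Of the 463, 115 (24.8%, interval 21.1 to 29.0) were in the muscle table, beside 16.7% of all 21900 protein-coding genes. In C2C12, 130 (28.1%, 24.2 to 32.3) were listed, beside 16.6% of all protein-coding genes. Both tables held 56 (12.1%, 9.43 to 15.4), beside 6.96% of all. The remaining 3 C2C12 members carry older symbols: Zfp191 is now Zfp24, Zfp259 is now Zpr1, and Zfp862 is now the pseudogene Zfp862-ps.

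The Zbtb genes stood above the others in this share. Of 41 Zbtb genes, 20 (48.8%, 34.3 to 63.5) were listed in muscle and 22 (53.7%, 38.7 to 67.9) in C2C12, and 16 were in both. Of 395 Zfp genes, 91 (23.0%, 19.2 to 27.4) were listed in muscle and 100 (25.3%, 21.3 to 29.8) in C2C12. The SCAN genes were fewer, with 2 of 11 Zkscan and 2 of 16 Zscan genes in muscle, and 3 of 11 and 5 of 16 in C2C12. The Zbtb and Zfp intervals did not overlap in either table, whereas those of the SCAN genes overlapped both.

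Genes that stand close to another zinc finger gene were listed less often than those that stand alone. Of 258 family genes with another family gene within 100 kb, 44 (17.1%, 13.0 to 22.1) were in the muscle table, a share near the 16.7% of all protein-coding genes. Of 205 without such a neighbour, 71 (34.6%, 28.5 to 41.4) were listed. The shares in C2C12 were 20.2% (15.7 to 25.5) and 38.0% (31.7 to 44.9). Within the Zfp genes alone, the muscle shares were 17.0% (12.7 to 22.3) of 230 with a neighbour and 31.5% (24.9 to 39.0) of 165 without. Within the Zbtb genes they were 18.2% (5.14 to 47.7) of 11 with a neighbour and 60.0% (42.3 to 75.4) of 30 without. Most Zbtb genes thus stood alone, whereas most Zfp genes had a neighbour. The part of this in the higher Zbtb share was not tested. Chromosome 7, which holds 103 of the family's genes, had 16 listed in muscle (15.5%) and 25 in C2C12 (24.3%). Chromosome 13, with 42 genes, had 6 (14.3%) and 2 (4.76%). Of all protein-coding genes, 16.7% and 16.6% were listed. Chromosome 9 had 10 of its 24 genes (41.7%) listed in each table. Some chromosomes with fewer family genes had higher muscle shares, such as chromosome 16 (6 of 8) and chromosome 1 (5 of 7). Neighbouring zinc finger genes can be near-identical, so reads can be shared or lost between them, and the part of read mapping in these shares was not tested.

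**Figure D1:**
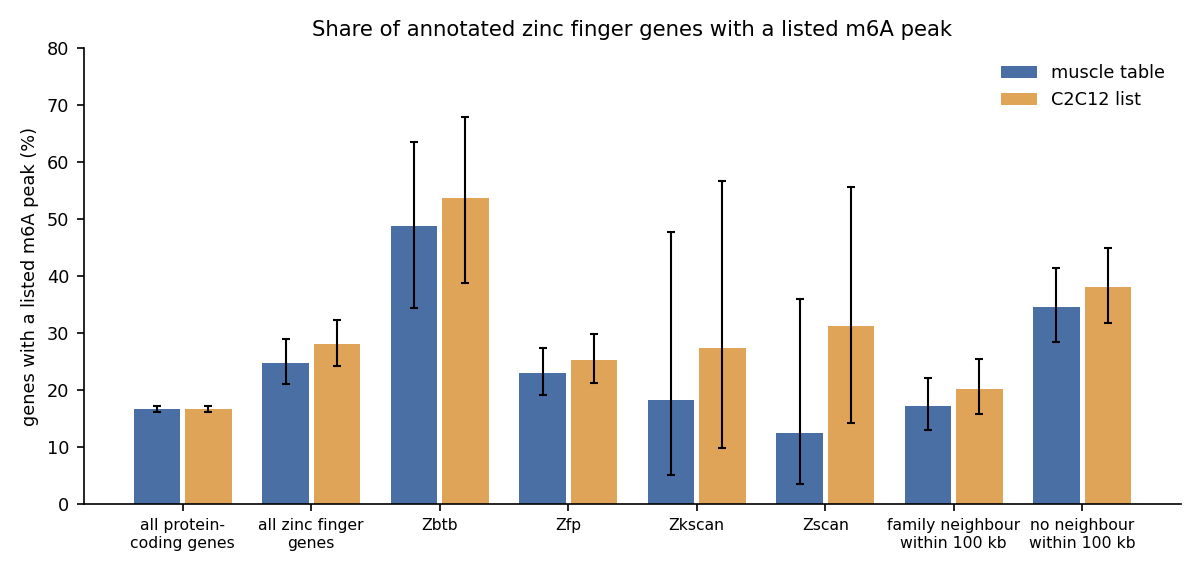
Share of protein-coding genes with a listed m6A peak, in percent (y axis), for all protein-coding genes, all zinc finger genes, each symbol prefix and genes with or without a family neighbour within 100 kb (x axis), in the muscle table (blue) and the C2C12 list (orange). Bars are shares and lines their 95% Wilson intervals; the Zbtb bars (48.8% and 53.7%) are the tallest, and genes without a neighbour (34.6% and 38.0%) lie above those with one (17.1% and 20.2%).

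The peaks of zinc finger genes lay in coding sequence more often than other peaks. In muscle, 81 of the 155 (52.3%, 44.4 to 60.0) were annotated to coding sequence, beside 31.3% of the 5257 other peaks. The 3'UTR held 53 of them (34.2%, 27.2 to 42.0), beside 48.4% of the others. A further 14 were in the file's general exon class, 6 in the 5'UTR and 1 at a stop codon. In C2C12, 144 of 193 (74.6%, 68.0 to 80.2) were in coding exons, beside 51.8% of the 5240 others, and 30 (15.5%, 11.1 to 21.3) were in the 3'UTR, beside 26.2%. Introns held 6 of the C2C12 zinc finger peaks, or 3.11% beside 12.8% of the others. The classes come from 2 annotation schemes, so shares are compared within a table and not between them.

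The Zfp and Zbtb genes differed in muscle largely through 1 gene. Coding sequence held 64 of 114 Zfp peaks (56.1%, 47.0 to 64.9) and 13 of 36 Zbtb peaks (36.1%, 22.5 to 52.4). Zbtb20, a repressor known from liver and brain, had 13 peaks, more than any other zinc finger gene, of which 12 were in the 3'UTR. Without it, 12 of 23 Zbtb peaks (52.2%, 33.0 to 70.8) were in coding sequence. In C2C12, where Zbtb20 was not listed, 33 of 35 Zbtb peaks (94.3%, 81.4 to 98.4) and 102 of 149 Zfp peaks (68.5%, 60.6 to 75.4) were in coding exons, as were 9 of 9 SCAN peaks.

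**Figure D2:**
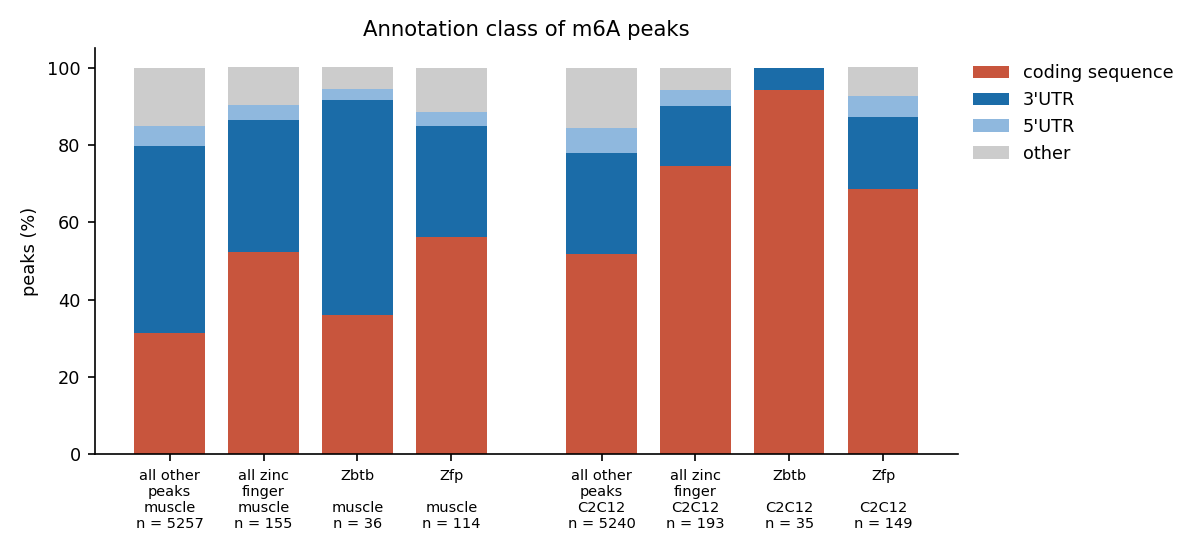
Annotation class of peaks, in percent of peaks (y axis), for all other peaks, all zinc finger peaks, Zbtb and Zfp peaks in the muscle table (left) and the C2C12 list (right), with the number of peaks under each bar. "Other" joins the exon, start and stop codon classes in muscle and intron, upstream and downstream in C2C12; the coding part of the zinc finger bars (52.3% and 74.6%) is larger than that of all other peaks (31.3% and 51.8%).

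Zinc finger peaks in muscle also had higher fold enrichment than other peaks in coding sequence and in the exon class. In the 3'UTR the gap was smaller, and it differed between Zfp and Zbtb genes. Their median fold enrichment was 45.8 (interval 33.3 to 88.8), with quartiles of 12.2 and 154, beside 12.6 for the others. Of the 155, 34 (21.9%) were among the 541 strongest of the table (10%), and 114 (73.5%) were at or above the median of all peaks, 12.9, beside 49.4% of the others. The median was 105 (51.7 to 136) over the 81 coding sequence peaks, beside 24.6 for other coding sequence peaks. In the 3'UTR it was 13.8 (7.90 to 22.9), beside 9.90 for the others, and that interval contains the value of the others. Of these 53 peaks, 12 were of Zbtb20. The 33 Zfp peaks had a 3'UTR median of 16.2 (11.9 to 64.6), an interval above 9.90, and the 20 Zbtb peaks 7.96 (4.08 to 15.0). Over all classes the median was 67.6 (39.0 to 105) without Zbtb20. The 14 exon class peaks had a median of 137 (33.3 to 282), beside 12.4. The zinc finger peaks were longer too, with a median of 721 bases beside 360, and those at or above 12.9-fold had a median of 974 bases. Fold enrichment is a ratio, which can be high where input reads are few, and the part of low input was not tested.

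The 10 genes with the strongest peaks were led by genes of the Zfp group. Zfp81 had a single peak of 1460-fold enrichment (rank 7 of 5412) over 1526 bases of coding sequence at chr17:33334066-33335591. Zfp503, a developmental corepressor, followed with 1090-fold over 2423 bases of exon at chr14:21984407-21987516. Zfp84 reached 1030-fold in coding sequence (chr7:29775367-29777884) and 520-fold in the adjoining 3'UTR, and Zfp516, a regulator of brown fat genes, 813-fold in a coding sequence peak joined over 7 blocks.

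The other 6 lay between 418-fold and 562-fold. Zbtb24, whose human counterpart is mutated in a syndrome of lost DNA methylation, reached 562-fold at chr10:41450413-41452199. Zbtb14 reached 544-fold and Zbtb21 472-fold. Zscan12 reached 481-fold at chr13:21368845-21369803, the highest of the SCAN genes. Zbtb38, which binds methylated DNA, had 2 strong coding sequence peaks (424-fold and 390-fold) beside a weak 3'UTR peak of 2.57-fold. Zfp445, a KRAB protein that maintains imprints, had 1 peak of 418-fold. All 10 genes had their strongest peak in coding sequence.

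At the other end were Zfp414 with 1.63-fold in the 5'UTR, Zfp260 with 2.43-fold and Zfp367 with 2.55-fold, the last 2 in the 3'UTR. These 3 peaks were 120 or 121 bases long and held no listed GGAC. All coordinates are those of the muscle table, on GRCm38.

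**Figure D3:**
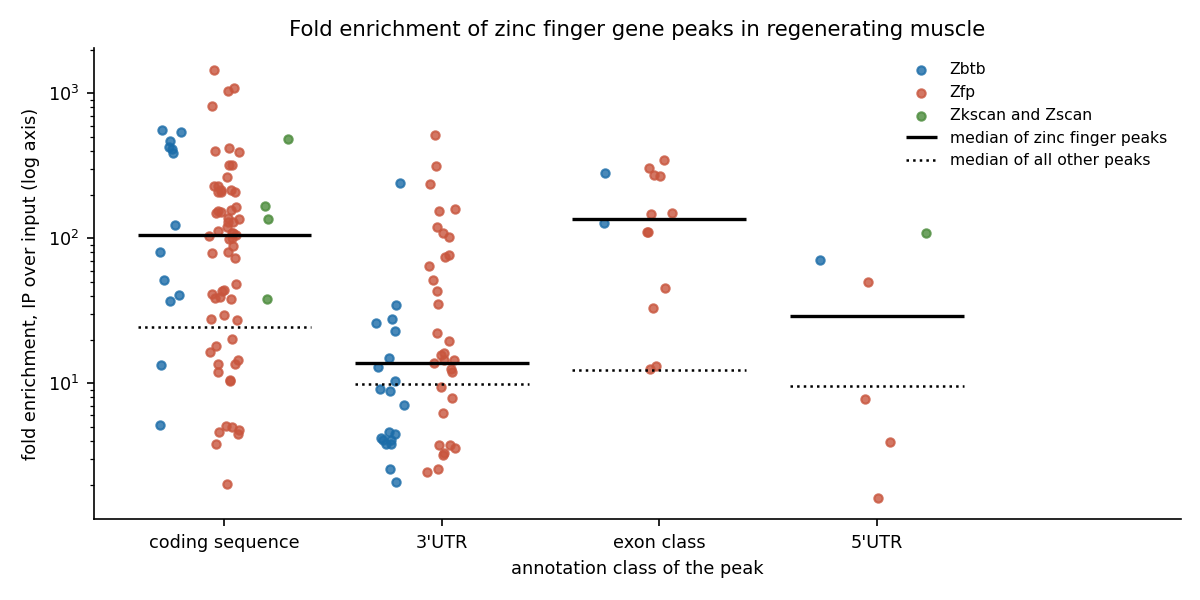
Fold enrichment of IP over input (y axis, log axis) of each zinc finger peak in muscle by annotation class (x axis), with Zbtb, Zfp and SCAN genes as coloured points; the 1 stop codon peak is not drawn. Solid lines are medians of zinc finger peaks and dotted lines those of all other peaks, which are 105 and 24.6 in coding sequence but 13.8 and 9.90 in the 3'UTR.

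More than 1 muscle peak was listed for 23 of the 115 zinc finger genes (20.0%, 13.7 to 28.2), beside 25.1% of other genes. In Zbtb20 the strongest 3'UTR peak reached 239-fold over 1320 bases and the remaining 11 in that UTR lay between 2.10-fold and 34.5-fold, with a coding sequence peak of 5.19-fold. Zfp292 had 4 coding sequence peaks of 264-fold, 130-fold, 44.3-fold and 16.5-fold. Zfp106, an RNA-binding protein needed to maintain motor neurons and muscle, had 4 weak peaks between 2.03-fold and 4.99-fold. Its 2 strongest overlapped peaks of Gm26899 on the other strand (4.83-fold, 2.27-fold and 4.73-fold), and since the strand setting of the counting is not given, reads from this pair cannot be told apart. Zfp652 had 3 peaks, of which the exon class peak reached 149-fold and the 3'UTR peaks 7.90-fold and 3.60-fold.

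The 18 genes with 2 peaks were Zbtb11, Zbtb7a, Zfp148, Zfp24, Zfp276, Zfp281, Zfp366, Zfp386, Zfp397, Zfp407, Zfp462, Zfp503, Zfp516, Zfp518a, Zfp84, Zfp870, Zfp871 and Zscan29. In Zbtb11, Zfp148 and Zfp516 a coding sequence peak (51.7-fold, 103-fold and 813-fold) stood beside a 3'UTR peak below 10-fold (4.08-fold, 3.73-fold and 6.20-fold). Zfp462 had the opposite order, with 10.5-fold in coding sequence and 43.2-fold in the 3'UTR. Zfp276 had 306-fold and 271-fold in exon class peaks that were both 838 bases long. Overlap with a neighbour also touches Zfp90 (111-fold), whose peak lay over that of Gm26786 on the other strand (106-fold), and Zbtb9 (70.6-fold), over that of Ggnbp1 on the same strand (102-fold).

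Several C2C12 peaks per gene were more common among zinc finger genes. Of the 133 listed, 50 (37.6%, 29.8 to 46.1) had at least 2 peaks, beside 25.4% of other genes. Zfp646 had 5 peaks in coding exons, spread from 1222 to 5067 bases after its start. Zbtb10 had 4 in coding exons, and the 4 of Zfp862 are labelled 5'UTR, although that gene is now annotated as a pseudogene. Zfp608, Zfp609 and Zfp865 had 3 each. The 44 with 2 peaks were Zbtb7a, Zbtb7b, Zbtb11, Zbtb14, Zbtb18, Zbtb21, Zbtb22, Zbtb24, Zbtb44, Zbtb49, Zfp64, Zfp106, Zfp142, Zfp146, Zfp148, Zfp213, Zfp217, Zfp236, Zfp276, Zfp280b, Zfp281, Zfp282, Zfp316, Zfp317, Zfp319, Zfp324, Zfp503, Zfp507, Zfp513, Zfp592, Zfp623, Zfp652, Zfp668, Zfp687, Zfp703, Zfp707, Zfp740, Zfp746, Zfp747, Zfp777, Zfp809, Zfp821, Zfp827 and Zscan29. C2C12 zinc finger peaks were about as long as the others, with medians of 274 and 285 bases, so the length difference of the muscle table did not appear there.

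Zinc finger peaks held fewer GGAC sites for their length than other muscle peaks. At least 1 site was listed in 110 of 155 (71.0%, 63.4 to 77.5), beside 70.6% of the others, although the zinc finger peaks were longer. Per 1000 bases the rate was 3.63 in zinc finger peaks (500 sites in 137608 bases) and 4.68 in the others. In coding sequence it was 3.66 for Zfp, 4.45 for Zbtb and 5.14 for other genes. The Zfp genes with a family neighbour within 100 kb had 2.56 sites per 1000 bases of coding sequence peak and those without had 4.22. A site was present in 15 of 25 such peaks with a neighbour (60.0%, 40.7 to 76.6) and in 35 of 39 without (89.7%, 76.4 to 95.9), and the intervals just overlapped. Without the minus-strand peaks of several blocks, whose sites are in doubt, the shares were 54.5% (34.7 to 73.1) and 88.6% (74.0 to 95.5), and the intervals did not overlap. The median enrichment of these 2 sets was 99.3 (27.9 to 149) and 103 (43.5 to 157), and without the same peaks 65.0 (20.3 to 215) and 101 (38.1 to 139).

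Long peaks with no listed site were more frequent among zinc finger genes. Among peaks of at least 1000 bases, 5 of 55 zinc finger peaks (9.09%, 3.95 to 19.6) and 1 of 720 peaks of other protein-coding genes (0.139%, 0.0245 to 0.782) had none. The 5 were Zfp81 (1526 bases, the strongest zinc finger peak), Zfp715 (1347 bases, 120-fold), Zfp52 (1252 bases, 230-fold), Zfp40 (1077 bases, 109-fold) and Zfp952 (1018 bases, 33.3-fold), named after their values were seen. From 500 bases, 12 of 97 zinc finger peaks (12.4%, 7.22 to 20.4) and 82 of 1887 of other protein-coding genes (4.35%, 3.51 to 5.36) had none. In coding sequence from that length, 7 of 48 Zfp peaks (14.6%, 7.25 to 27.2) lacked a site. In other genes 33 of 934 such peaks did (3.53%, 2.53 to 4.92). Of 12 Zbtb peaks, 0 lacked a site (0%, 0 to 24.2), and this interval overlaps those of Zfp and of other genes. So few Zbtb peaks cannot show a difference from either. Of 3 SCAN peaks, 1 lacked a site, that of Zscan12 (959 bases, 481-fold). At the other extreme Zfp516 held 34 sites, Zfp646 19 in 2754 bases and Zbtb22 16 in 2316 bases.

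The site column itself has limits. In peaks of several blocks on the minus strand, 886 of 2068 listed sites (42.8%) fell more than 4 bases outside the peak's own blocks, whereas none did in any other kind of peak, so both position and count are doubtful there. This touches 10 zinc finger peaks with 85 sites, of which 38 lay outside, in Zfp503, Zfp609, Zfp746, Zfp513 and Zscan29 among others. Without these peaks the rates were 3.44 in Zfp coding sequence and 5.08 in that of other genes. Of the GGAC motifs that could be read in RefSeq promoter sequences, the table listed 3 of 9 in minus-strand peaks of several blocks, 18 of 18 in plus-strand ones and 70 of 74 in single-block peaks, and all 5 long peaks without a site were of that kind. Other forms of the m6A context (such as AGAC or GAAC) are not listed and were not analysed here.

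**Figure D4:**
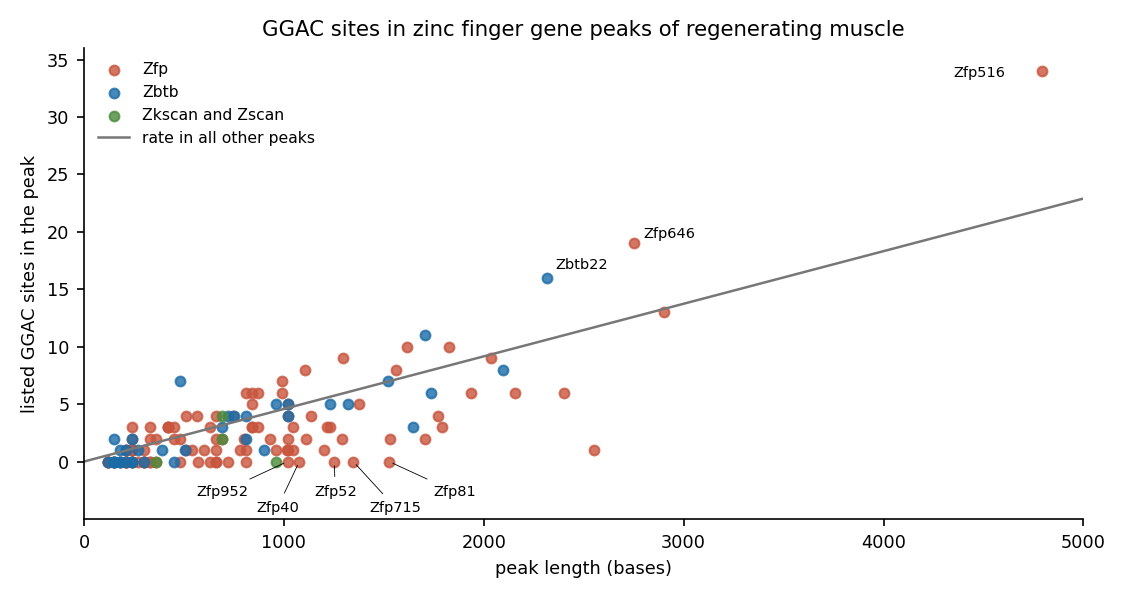
Number of listed GGAC sites (y axis) against peak length in bases (x axis) for zinc finger peaks in muscle, without the 10 minus-strand peaks of several blocks. The line is the rate in all other peaks (4.58 per 1000 bases, same exclusion); the 5 peaks named at 0 sites are over 1000 bases long, whereas Zfp516, Zfp646 and Zbtb22 lie above the line.

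The 56 genes in both tables were 48.7% of the muscle members and 42.1% of the C2C12 members, beside 39.1% and 39.2% for all genes of each table. Their strongest muscle peaks were higher, with a median of 131 (102 to 167), beside 41.1 (29.7 to 88.8) for the 59 zinc finger genes in muscle alone. Other genes showed the same order at lower levels, with 36.8 (32.6 to 42.9) for 1502 shared genes and 13.2 (12.4 to 14.5) for 2363 in muscle alone. The 12 shared genes with the strongest muscle peaks were Zfp81, Zfp503, Zbtb24, Zbtb14, Zscan12, Zbtb21, Zbtb38, Zbtb22 (416-fold), Zfp646 (403-fold), Zfp830 (394-fold), Zfp282 (348-fold) and Zfp871 (317-fold). Coding sequence peaks were listed in both tables for 33 of the 56, and 15 had a coding exon peak in C2C12 with none in muscle coding sequence. The classes come from different annotation schemes, so these counts do not show a difference between muscle and C2C12. Among the 15, Zbtb2, Zfp146, Zfp334, Zfp655, Zfp715, Zfp846 and Zfp871 had a coding exon peak in C2C12 whose centre lay within a muscle peak of another class. This was judged by distance from the gene's start.

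Places within genes were compared by distance from the gene's start, because the C2C12 coordinates are not those of GRCm38: the centres of 10 of 187 C2C12 zinc finger peaks lay within their gene's GRCm38 span, beside 149 of 155 muscle peaks. A RefSeq start was at hand for 49 of the 56 shared genes, and of several starts the one with most matches was used. In 35 of the 49 genes the centre of a C2C12 peak fell inside a muscle peak, and in 14 none did. The choice among starts could raise this count, and over the 40 genes with a single start it was 28 (70.0%, 54.6 to 81.9). The centre lay within an exon block of the muscle peak in the same number of genes, 35. How often a centre would fall there by chance was not tested, and the same count was not made for other shared genes. These matches are therefore not shown to be particular to zinc finger genes. Zfp81 had its C2C12 centre 23809 bases after the start, within the muscle peak from 23287 to 24812. Zbtb38 had it at 45292, within 44625 to 46271, and Zscan12 at 6572, within 6025 to 6983. Zbtb14, Zbtb18, Zbtb21, Zbtb22, Zfp148, Zfp281, Zfp503, Zfp513 and Zfp746 had both of their C2C12 peaks inside.

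The 35 genes with a match had strongest muscle peaks between 43.5-fold and 1460-fold (median 167), of which 25 were in coding sequence. The 14 without had 2.43-fold to 149-fold (median 9), and 7 of these were in the 3'UTR. They included Zbtb4, Zbtb7a, Zfp106, Zfp260, Zfp629 and Zfp740, whose muscle peaks did not reach beyond 15.0-fold. Stronger muscle peaks are also longer and so more easily hold a centre, and the part of length was not tested.

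**Figure D5:**
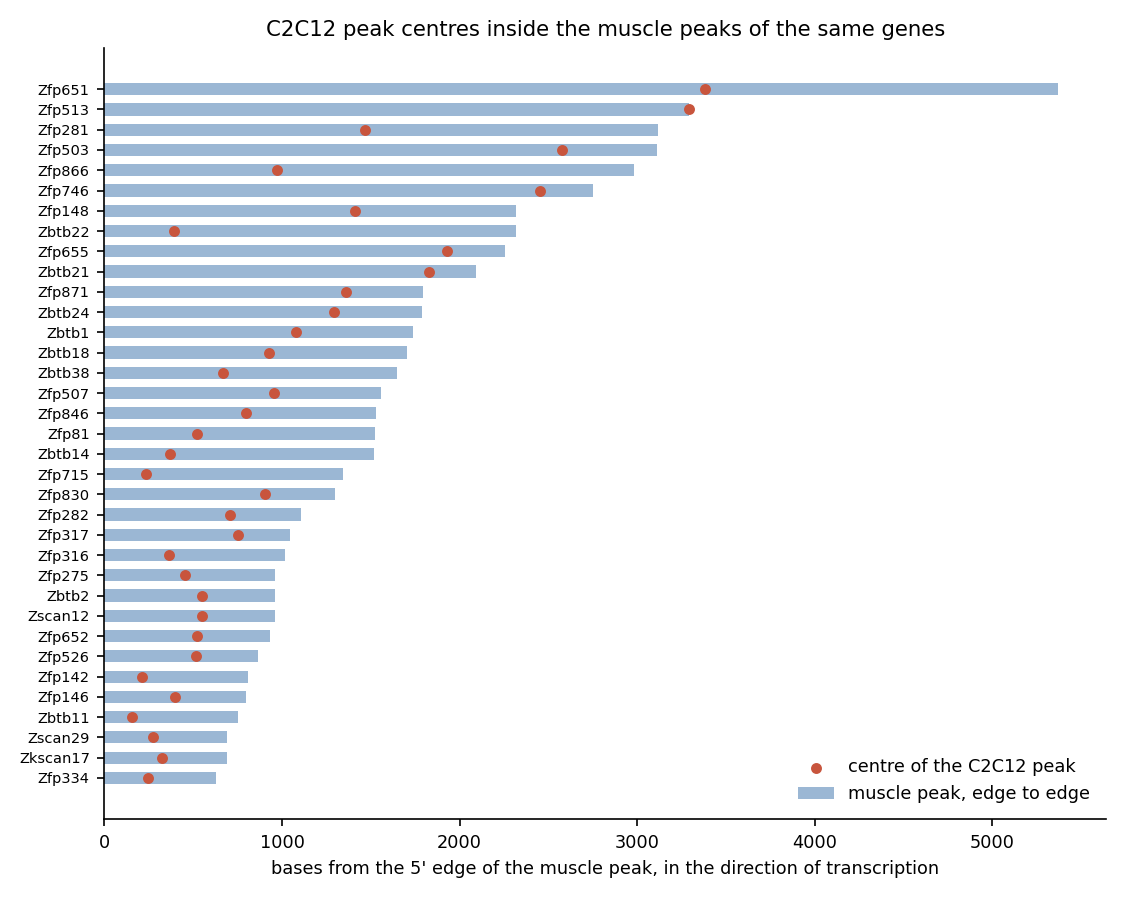
Muscle peaks of the 35 genes with a match (bars, edge to edge, with any intron included) and the centre of 1 C2C12 peak for each gene (points), in bases from the 5' edge of the muscle peak (x axis), measured from the gene's start in each table. Genes are ordered by the span of the muscle peak; every point lies within its bar because that is how these genes were chosen.

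The gene lists from here on were chosen with earlier results of these data known, so their listed shares are no test of enrichment. Of the 9 genes on a list chosen for muscle and mesenchyme, 7 had a muscle peak (77.8%). The share was 24.8% for the family and 16.7% for all protein-coding genes. The list includes Zbtb16, Zbtb18 and Zbtb20, from a group with a muscle share of 48.8%. A C2C12 peak was listed for 3 of the 9 (33.3%, beside 28.1% and 16.6%). Zbtb18, a repressor of Id genes that is needed for myogenesis, had a coding sequence peak of 124-fold with 11 GGAC sites over 1707 bases in muscle and 2 coding exon peaks in C2C12. Zfp609 had 217-fold in coding sequence and 3 C2C12 peaks. Zfp106 was the third gene in both tables. In muscle alone were Zbtb20, Zfp521 (157-fold in coding sequence), a factor of early mesenchymal and adipocyte fate, Zfp422 (13.6-fold, with no site in 660 bases) and Zbtb16 (4.65-fold in the 3'UTR). Zfp423 and Zfp467, both tied to the fat and bone lineages, were in neither table.

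Of the genes of immune lineages, 2 of 8 (25%) were listed in muscle and 4 of 8 (50%) in C2C12. The family shares were 24.8% and 28.1%. All but Zfp683 are Zbtb genes, however, and Zbtb genes as a group were listed at 48.8% and 53.7%. Beside that group the muscle share was lower and the C2C12 share similar, over 8 genes only. Zbtb1, needed for lymphoid development, had a coding sequence peak of 80.8-fold in muscle and a coding exon peak in C2C12, whose centre lay within it. Zbtb7a, a repressor of fetal globin, had 3'UTR peaks of 15.0-fold and 13.0-fold in muscle but 2 coding exon peaks in C2C12. Zbtb7b, the CD4 lineage factor, and Zbtb10 were in the C2C12 list alone. Zbtb46, Zbtb32, Zbtb17 and Zfp683 were in neither.

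Genes of DNA methylation, imprinting and retroelement silencing were listed in 5 of 8 cases (62.5%) in each table, and 3 were in both. The family shares were 24.8% and 28.1%, but the list includes Zbtb24, Zbtb33, Zbtb38 and Zbtb4. Zbtb genes as a group were listed at 48.8% in muscle and 53.7% in C2C12. In muscle all of these Zbtb genes were listed, and of the list's Zfp genes only Zfp445. The readers of methylated DNA ranged widely in muscle, with Zbtb38 at 424-fold, Zbtb33 at 13.4-fold and Zbtb4 at 4.05-fold. Zbtb24 (562-fold) was in both tables with Zbtb38 and Zbtb4. Zfp445 (418-fold) and Zbtb33 were in muscle alone, whereas Zfp57, which keeps imprints with Zfp445, and Zfp809, which silences retroviruses, were in C2C12 alone. Zfp568 was in neither.

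Of 6 genes of pluripotency and m6A, 1 (16.7%) was listed in muscle and 3 (50%) in C2C12. The family shares were 24.8% and 28.1%. Zfp281 was in both tables, with muscle peaks of 105-fold (13 sites) and 13.2-fold and 2 coding exon peaks in C2C12. Zfp217, whose protein binds METTL3 and limits m6A in embryonic stem cells, had 2 coding exon peaks in C2C12 and Zfp143 a 3'UTR peak, and neither was in the muscle table. Zfp42, Zfp207 and Zscan10 were in neither table. Of 6 RNA and ribosome genes, 2 (33.3%) were listed in muscle and 3 (50%) in C2C12, beside the same family shares. Zfp830, a splicing factor, reached 394-fold in muscle and was in both tables. Zfp385a had 35.4-fold in the muscle 3'UTR, and Zfp622 and Zfp326 were in C2C12 alone, with peaks labelled intron and 5'UTR. The Zfp326 peak was assigned to a noncoding RefSeq record, 38242 bases after its start, so its 5'UTR label is in doubt. Zfp593 and Zfp638 were in neither. Of the 3 genes of autophagy and telomeres, 1 (33.3%) was listed in muscle and 2 (66.7%) in C2C12, beside the same family shares. Zbtb48, which binds telomeres, had 127-fold in muscle and a coding exon peak in C2C12, Zfp827 had 2 C2C12 peaks and Zkscan3 had none.

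The corepressors that these proteins recruit were listed for 6 of 14 genes in muscle (42.9%, beside 16.7% of all protein-coding genes) and 3 of 14 in C2C12 (21.4%, beside 16.6%). On the Zbtb side, Bcor reached 44.4-fold and Ncor1 32.4-fold in muscle, and Bcor was also in C2C12. On the KRAB side, Setdb1 had 16.7-fold and was in both tables, Cbx5 had 5.82-fold and Atrx 13.2-fold, whereas Trim28 itself was in neither table. Chd4 had 19.3-fold in muscle, and Hdac1 was listed in C2C12 by an intron peak.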

How the data were processed

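MeRIP-Seq pulls down fragmented mRNA with an antibody against m6A and sequences it beside the input RNA. The authors deposited a muscle table with 1 fold enrichment (a ratio of IP over input) for each peak, its class, GRCm38 coordinates and GGAC positions, and a C2C12 list of peaks without enrichment. Per the labels, TopHat, MACS2 and the mm10 build (GRCm38) were used. The C2C12 coordinates did not match that build, as described above, and the build they are on is not stated. Versions, thresholds and the library layout of the peak calls are not given in the sources used here. The authors' columns of their own test between genotypes (fold change, p and FDR) and of peak significance were not used. No column held a single library, so no test between groups was made.

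Python 3.11.15 with pandas 2.3.3, numpy 2.4.6, scipy 1.17.1 and matplotlib 3.10.9 served for all counts. Peak length was the sum of a peak's blocks. Shares have 95% Wilson intervals and medians order-statistic intervals, tested on simulated data. Symbols were matched to RefSeq (GRCm38.p6), where 189 of 192 members met a protein-coding gene. The members, the gene lists and the comparisons were chosen with earlier results of these data known. Genes were named by a rule: the 10 strongest and 3 weakest in muscle, those with 2 or more peaks in either table, up to 12 shared genes, and listed genes of the role lists. 1 gene was taken out of the corepressor list, which left the 14 counted, and is not reported here.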

Additional observations from a re-analysis of the deposited data

How the results depend on the processing

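No paired analysis was possible because each genotype had 1 IP and 1 input library and the tables give no value per library; leaving out a library was not possible for the same reason. Of 38 alternatives, 32 left the value within 1.5 times a count or within its interval, among them current symbols (138 genes in C2C12, 57 in both tables), adding the Zfp36 and Zfpm genes, other neighbour distances (50 kb and 500 kb), a tolerance of 50 or 200 bases, exon blocks or single starts for place, and leaving out Zbtb20 or the minus-strand spliced peaks. Of the other 6, 5 moved. The median fold enrichment of zinc finger peaks, 45.8 over all peaks, was 99.3 with the strongest peak of each gene, 105 over coding sequence and 13.8 over the 3'UTR. Above the median enrichment of all peaks, the coding sequence share was 61.4% and the share with a GGAC site 78.9%, beside 86.1% of other peaks in the same range. The last replaced the share with a site by another quantity, 3.63 sites per 1000 bases. Of the alternatives, 20 were chosen after seeing the data. Depth and input level are unknown and limit what a peak's absence can show.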

Other observations

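Of the 5 genes that the symbol rule left out, 4 were listed in at least 1 table. In muscle 2 of 5 were listed and in C2C12 3 of 5, beside 16.7% and 16.6% of all protein-coding genes. So few genes do not allow a comparison of shares. The Zfp36 genes are CCCH zinc finger genes and encode proteins that bind AU-rich mRNA and speed its decay. Zfp36l2 had 2 muscle peaks, the stronger of 172-fold in coding sequence, and a 3'UTR peak in C2C12. Zfp36l1 had 2 muscle peaks, the stronger of 8.09-fold in the 3'UTR, and Zfp36 had a coding exon peak in C2C12. Zfpm1, a cofactor of GATA proteins, had a coding exon peak in C2C12, and Zfpm2 was in neither table.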
